A study of Mus musculus with 6 samples.

Results

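The killer cell lectin-like receptors described here are 6 mouse genes, Klrg1, Klrk1, Klrc1, Klrd1, Klrb1c and Klre1, of the 23992 gene symbols counted in sorted regulatory T cells (Treg cells). They were chosen by symbol, and for each symbol the transcript row with the most reads over the 6 libraries was used. RNA was sequenced from cells sorted as live CD4+YFP+ from male CD45.2 mice. Per the labels the tissue was spleen with lymph nodes, although the name of the deposited table mentions lung and lung epithelial markers took 0.241% to 7.57% of the counts. The labels also describe naive CD4+ T cells from CD45.1 mice, which none of the sample titles names. The 3 WT libraries are labelled as cells of Foxp3YFP-Cre/Y mice, and the 3 KO libraries as cells of Foxp3YFP-Cre/Y mice that also carry Crlf2fl/fl. Both groups therefore carry the same Foxp3-driven Cre, and the KO group loses Crlf2, the TSLP-binding receptor subunit, in cells that express Foxp3, while other cells of the animal keep it. Sample titles and genotype tags were followed for the grouping, because the strain written in each description is that of the other group. The sources used here give neither age nor the number of animals behind a library.

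Killer cell lectin-like receptors are membrane proteins with a C-type lectin-like domain. Most of their genes lie in the natural killer gene complex, and natural killer (NK) cells are where they were first described. Some pass inhibitory signals through tyrosine motifs that recruit phosphatases, and others pass activating signals through the adaptors DAP10 and DAP12. KLRG1 is an inhibitory receptor for cadherins that marks terminally differentiated effector T cells, mature NK cells, group 2 innate lymphoid cells and a subset of effector Treg cells. NKG2D (Klrk1) is an activating receptor for stress-induced ligands. CD94 (Klrd1) pairs with NKG2A (Klrc1) into an inhibitory receptor for the non-classical MHC molecule Qa-1. NK1.1 (Klrb1c) is the activating receptor used to sort NK cells in C57BL/6 mice, and Klre1 encodes a receptor of NK cells that pairs with Klri1 or Klri2.

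All 6 genes are protein coding and lie on chromosome 6 (RefSeq, GRCm38.p6, the build that mm10 names). Klre1 (129559365 to 129585828, plus strand), Klrd1 (129588092 to 129598775, plus strand), Klrk1 (129610323 to 129623903, minus strand) and Klrc1 (129666015 to 129682852, minus strand) follow one another within 123.5 kb. Klrb1c (128778485 to 128788641, minus strand) lies 770.7 kb before Klre1. Klrg1 (122270596 to 122282833, minus strand) lies 6.5 Mb before Klrb1c, outside this cluster. Sequence that paralogs share limits how well reads can be assigned. Of the distinct 50-base stretches in the GENCODE M21 transcripts of Klrc1, 38.6% also occur in Klrc2 or Klrc3. For Klrb1c the share is 17.0%, mostly with Gm44511, whose exons overlap it on the same strand. It is 0.28% for Klre1 and 0% for Klrg1, Klrk1 and Klrd1.

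Promoter sequences from RefSeq (GRCm38.p6) matched 4 of the 6 symbols. For each, the 250 bases before the start of the promoter entry are printed 5′ to 3′, because these 4 genes shared one pattern over the libraries. The start of an entry is not always the outer end of the gene given above. It is the same base for Klrb1c, but lies 39 bases inside the gene for Klrk1, 3.88 kb inside for Klrc1 and 18.8 kb inside for Klre1. Klre1 has 2 entries, of which the more upstream is shown. Capitals mark matches to 4 motifs searched on both strands, the RUNX core TGTGGT, the T-box motif TCACACC, the ETS motif AGGAAG and the STAT motif TTCNNNGAA.
Klrk1 (chr6:129623865-129624114, minus strand): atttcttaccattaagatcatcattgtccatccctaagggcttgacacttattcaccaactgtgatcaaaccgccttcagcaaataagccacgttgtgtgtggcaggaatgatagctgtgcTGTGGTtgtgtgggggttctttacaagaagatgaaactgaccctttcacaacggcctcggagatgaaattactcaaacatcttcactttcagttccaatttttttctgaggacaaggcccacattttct
Klrc1 (chr6:129678974-129679223, minus strand): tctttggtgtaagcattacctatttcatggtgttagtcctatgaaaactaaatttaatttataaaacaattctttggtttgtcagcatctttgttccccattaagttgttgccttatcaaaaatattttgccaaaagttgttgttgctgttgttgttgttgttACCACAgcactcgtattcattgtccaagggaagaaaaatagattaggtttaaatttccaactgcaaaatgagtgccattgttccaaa
Klrb1c (chr6:128788642-128788891, minus strand): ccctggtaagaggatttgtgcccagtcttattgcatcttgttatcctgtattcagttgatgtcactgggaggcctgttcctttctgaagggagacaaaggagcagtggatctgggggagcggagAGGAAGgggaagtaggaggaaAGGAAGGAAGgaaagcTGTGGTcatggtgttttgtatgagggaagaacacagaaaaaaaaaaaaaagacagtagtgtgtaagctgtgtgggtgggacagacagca
Klre1 (chr6:129577963-129578212, plus strand): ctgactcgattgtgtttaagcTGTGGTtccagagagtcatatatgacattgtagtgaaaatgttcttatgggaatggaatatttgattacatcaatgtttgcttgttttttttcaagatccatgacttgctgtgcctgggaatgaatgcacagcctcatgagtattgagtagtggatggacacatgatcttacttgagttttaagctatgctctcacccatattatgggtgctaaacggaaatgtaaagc
A TGTGGT match was in each of these 4 sequences, 129 bases before the start in Klrk1, 89 in Klrb1c, 229 in Klre1, and on the other strand 87 in Klrc1. Of the 32851 promoter entries of this length, 14.0% hold that motif. Klrb1c also held AGGAAG 3 times, with 2 of the matches overlapping, against 29.5% of entries with at least 1 match. The entry of Klre1 that is not printed, with its start 18.9 kb inside the gene, held no TGTGGT and 1 AGGAAG match on the other strand. Neither TCACACC (3.33% of entries) nor TTCNNNGAA (7.02%) was in any of the 5 entries. These matches describe letters only.

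With 1 row kept per symbol, the shallowest library was WT replicate 2 with 1439740 counts and the deepest was KO replicate 3 with 18352405. Crlf2 had 93, 84 and 68 reads in KO and 694, 213 and 1111 reads in WT replicates 1 to 3, which goes with the titles. Foxp3 was present in every library, at 386 to 489 CPM in KO and 474, 437 and 200.1 CPM in WT, where CPM is the normalised read count scaled to library size with TMM factors. WT replicate 3 stood apart from the other libraries. Pan-T cell genes summed to 3907 CPM in it and to 5617 to 6240 CPM elsewhere, and erythroid markers took 9.88% of its counts against 0.117% to 0.468%. Hba-a1 and Hba-a2 had nearly equal counts (318898 and 316964 reads in WT replicate 3), so the erythroid share may count the same reads under both. The B cell markers of WT replicate 3 summed to 383 CPM against 18.2 to 30.9. Its macrophage and monocyte markers summed to 8262 CPM, against 399 and 764 in WT replicates 1 and 2 and 2429 to 2673 in KO. In bulk RNA, fewer cells of a type and less RNA per cell cannot be told apart. The labels do not say whether replicates are different animals, and the p-values therefore reflect spread among these samples that may be technical.

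Klrg1 was the one gene of the 6 that all libraries expressed well, and it rose in KO. It had 971, 212 and 950 reads in WT replicates 1 to 3 and 3094, 2765 and 6462 reads in KO replicates 1 to 3. Scaled to depth, these were 130, 145 and 89.9 CPM in WT and 301, 221 and 337 CPM in KO. Every KO library lay above every WT library, with WT replicate 3 lowest and KO replicate 3 highest. The means were 122 ± 28.5 in WT and 287 ± 59.4 in KO (CPM, SD, n = 3 each), a log2 ratio of 1.25 with SE 0.22 (adjusted p = 0.0359, edgeR quasi-likelihood test), or 2.38-fold. The log2 ratio here and below is the fitted log2 fold change of KO over WT. Of the 12720 genes tested, 1.74% were called at an adjusted p under 0.05, 0.755% higher in KO and 0.983% lower. Groups did not overlap for 22% of them, with 10.4% higher and 11.5% lower in KO. Of the 96 genes called higher, 50 had a larger log2 fold change than Klrg1. Per kilobase of transcript, the mean CPM of Klrg1 exceeded that of 91.9% of tested genes in WT and of 96.8% in KO.

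The difference was also present when Klrg1 reads were set against reads of T cell genes in the same library. Per 1000 Foxp3 reads there were 274, 332 and 449 Klrg1 reads in WT replicates 1 to 3 and 781, 452 and 791 in KO replicates 1 to 3. On this scale WT replicate 3, which had the least Foxp3, and KO replicate 2 almost met. Per 1000 reads of 11 pan-T cell genes the WT libraries lay close together, at 22.2, 25.1 and 23, and the KO libraries were at 53.2, 39.4 and 54.1. The ratio of the KO mean to the WT mean was 1.92 per Foxp3 read and 2.09 per pan-T cell read. The plot of Klrg1 on 3 scales shows the same order of groups in each panel.

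**Figure D1:**
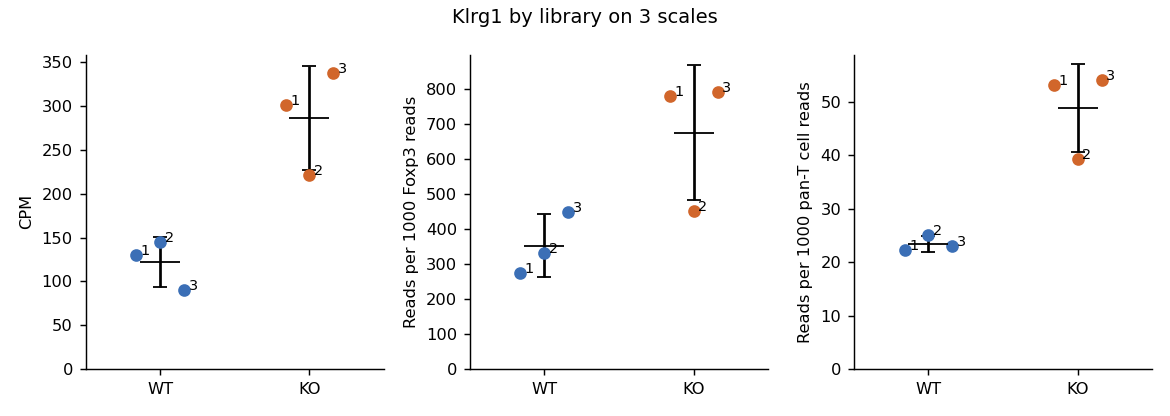
Klrg1 in each library as CPM (left), as reads per 1000 Foxp3 reads (middle) and as reads per 1000 reads of 11 pan-T cell genes (right), with replicate numbers beside the points and bars for the mean and SD of 3 libraries. KO libraries lie above WT libraries in all 3 panels, and WT replicate 3 (449) and KO replicate 2 (452) are nearly level in the middle one.

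How firmly Klrg1 was called depended on which libraries entered. Without WT replicate 3 the log2 fold change was 1.07 (SE 0.19; adjusted p = 0.0186, edgeR), or 2.1-fold, with the library that holds the most NK cell RNA left out. Without KO replicate 2 it was 1.41 (edgeR adjusted p = 0.0417). The call was lost without WT replicate 1 (1.32, edgeR adjusted p = 0.0880), WT replicate 2 (1.40, edgeR adjusted p = 0.0682), KO replicate 1 (1.22, edgeR adjusted p = 0.191) or KO replicate 3 (1.12, edgeR adjusted p = 0.193). With the summed level of NK cell markers, Txk among them, as a covariate it was 0.90 (SE 0.22; adjusted p = 0.0660, edgeR). That sum was 62.7 to 717 CPM in WT and 39.2 to 50.7 CPM in KO, with no overlap. This fit therefore cannot fully separate NK marker level from genotype. The sign was positive in all 16 alternative fits. The share of all genes called higher moved with the fits as well. It was 1.87% without WT replicate 3, 0.329% without KO replicate 2, 0.121% without WT replicate 1, 0.0899% without WT replicate 2, 0.0151% without KO replicate 1 and 0.0228% without KO replicate 3. With the NK covariate it was 1.73%, with DESeq2 2.89%, with limma-voom 1.05% and with a replicate block 0.252%. With other scaling it was 0.731% (DESeq2 size factors), 0.778% (upper quartile) and 0.228% (pan-T cell genes). It was 0.652% without the low-count filter, 0.495% without robust estimation and 0.763% with the longest transcript row.

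**Figure D2:**
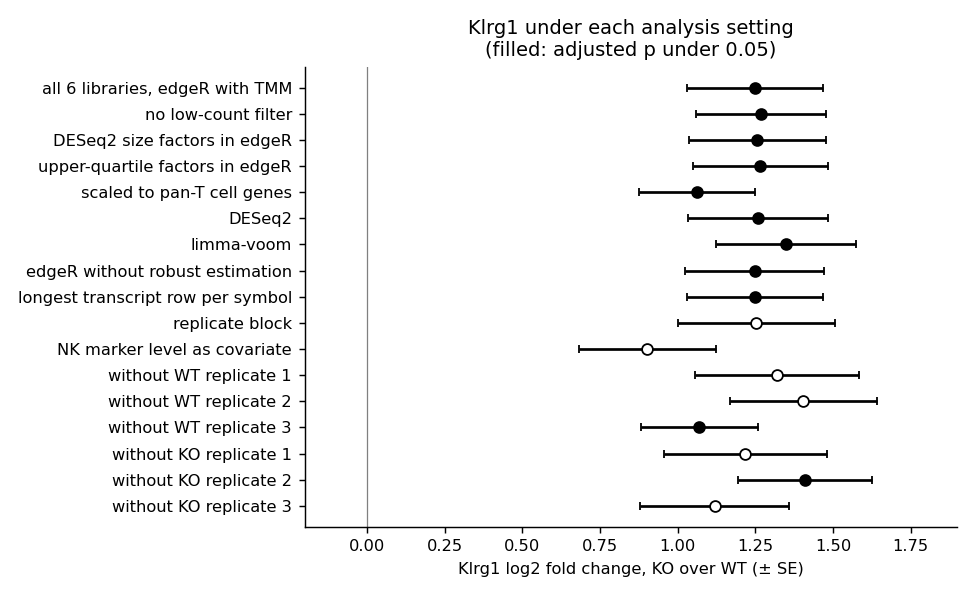
Log2 fold change of Klrg1, KO over WT, with its SE (x axis), in the fit to all 6 libraries and in 16 alternative fits (y axis), with filled points where the adjusted p was under 0.05. All values lie between 0.90 and 1.41, and points are open for 6 of the alternatives.

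Klrg1 marks effector Treg cells, so a list of 20 genes of that compartment was read beside it. These genes overlap with ones already known to move in these libraries and are no independent support. Of the 20, 6 were called higher in KO and 1 lower, and the median log2 fold change was 0.63, against -0.04 over all tested genes. Klrg1 (1.25) ranked below Il10 (2.27), which encodes a suppressive cytokine, the checkpoint receptor gene Lag3 (2.08), the nuclear receptor gene Pparg (1.93) and the chemokine receptor genes Ccr8 (1.85) and Cxcr6 (1.67), and above Tigit (1.09), an inhibitory receptor gene. Gzmb, which encodes granzyme B, fell by 1.56 on the log2 scale. Without WT replicate 3, 8 of the 20 were called higher and 2 lower. The calls were fewer without WT replicate 1 (1 higher) or WT replicate 2 (3 higher). They were also fewer without KO replicate 1 (1 higher), KO replicate 2 (5 higher) or KO replicate 3 (1 higher). With all 6 libraries, 3 were called higher with the replicate block, and 8 with DESeq2 or limma-voom. DESeq2 size factors or no robust estimation gave 5. The share of all genes called higher in each fit is given above.

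**Figure D3:**
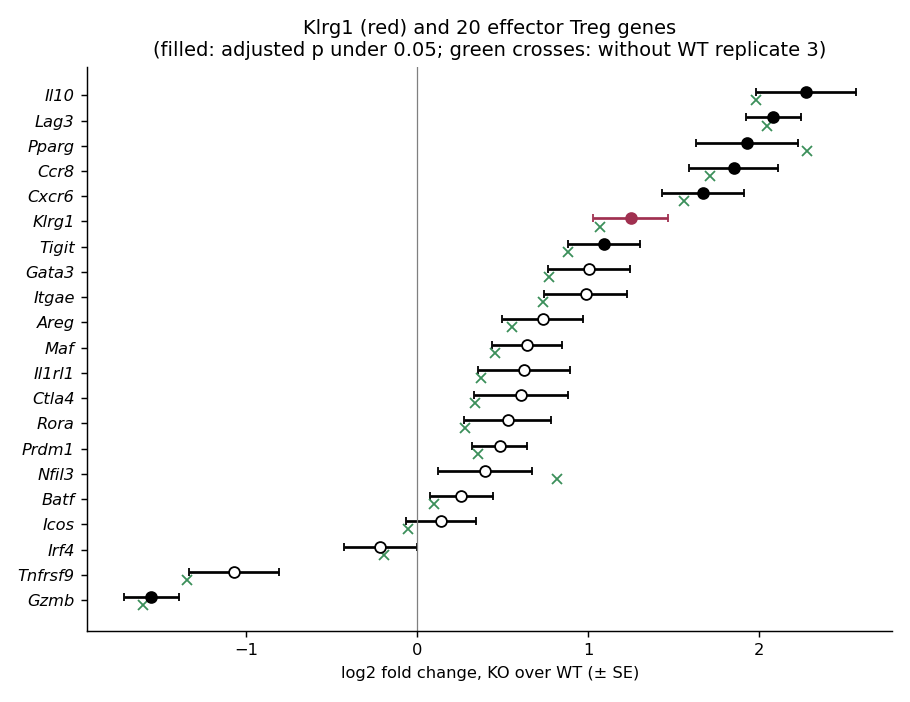
Log2 fold change, KO over WT, with its SE (x axis) for Klrg1 in red and 20 effector Treg genes in black (y axis), with filled points where the adjusted p was under 0.05 and green crosses for the fit without WT replicate 3. Klrg1 (1.25) lies sixth from the top, between Cxcr6 (1.67) and Tigit (1.09), and its cross is at 1.07.

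Other cell types that express Klrg1 were checked through their markers. Markers of group 2 innate lymphoid cells summed to 42.8, 82.1 and 133 CPM in WT replicates 1 to 3 and to 160, 135 and 186 CPM in KO. Of the 6 that were tested, edgeR called none (3 had an unadjusted p under 0.05). It called 1 higher without WT replicate 3 and 1 higher with the NK covariate. DESeq2 called 1 higher with all 6 libraries. The share of all genes called higher in each fit is given above. Of the 6 tested, 5 had a positive log2 ratio and 1 a negative one, with a median of 0.93. Il17rb, which encodes a subunit of the IL-25 receptor, was at 10.7, 18.5 and 9.27 CPM in WT replicates 1 to 3 and 39.4, 22.4 and 33.0 CPM in KO, with no overlap (log2 ratio 1.37, SE 0.34; adjusted p = 0.0942, edgeR). The cytokine receptor gene Il9r had a log2 ratio of 0.87 (adjusted p = 0.182, edgeR), the cytokine gene Il13 of 0.99 (adjusted p = 0.495, edgeR) and Hpgds of 0.60 (adjusted p = 0.587, edgeR). Arg1, which macrophages also express, had a log2 ratio of 1.08 (adjusted p = 0.648, edgeR). It was the one called without WT replicate 3 (3.13; adjusted p = 0.0141, edgeR) and with the NK covariate (3.95; adjusted p = 0.0089, edgeR). The negative one was the cytokine gene Il5, at 0.802, 2.74 and 20.4 CPM in WT replicates 1 to 3 and at 0.876 to 1.84 CPM in KO. Rxrg, not tested, had at most 1 read in any library. Markers of CD8 and innate-like T cells summed to 47.9 to 91.2 CPM in WT and 35.3 to 71.2 CPM in KO, with no call among the 4 tested (0 had an unadjusted p under 0.05). The 12 NK cell markers summed to 62.7, 91.7 and 717 CPM in WT replicates 1 to 3 and to 41.8, 50.7 and 39.2 CPM in KO. Without Txk, which T cells also express, WT replicate 1 (30.8 CPM) was below KO replicate 2 (33.8 CPM), so the groups overlapped. The part of these cells in the Klrg1 difference was not tested.

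The 3 genes whose pattern over the 6 libraries was nearest to that of Klrg1, among 9837 genes with a mean of at least 5 CPM, were Apol9b, Dtx4 and Zcchc10. Likeness was the root mean square difference of log2 CPM after each gene was centred on its own mean, and came to 0.09, 0.12 and 0.13. Apol9b was at 51.2, 67.1 and 34.4 CPM in WT replicates 1 to 3 and at 115, 93.2 and 136 CPM in KO, the same order of libraries as Klrg1. Its log2 ratio was 1.21 (SE 0.25) and it was not called (edgeR adjusted p = 0.0596). Zcchc10 was called (log2 ratio 1.36, SE 0.23; adjusted p = 0.0330, edgeR), and Dtx4 was not (1.27, SE 0.30; adjusted p = 0.0863, edgeR).

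The other 5 genes had nearly all of their reads in WT replicate 3. Together they had 1536 reads there (145 CPM) and 13 to 47 reads in each of the other libraries (2.45 to 8.90 CPM). They made up 61.8% of the reads of the 6 receptor genes in WT replicate 3 and 0.722% to 5.78% elsewhere, where Klrg1 supplied the rest. WT replicate 3 held 19.9% of all counts of the 6 libraries, but 84.3% of the Klrc1 reads, 86.7% of Klrk1, 88.1% of Klrd1, 94.8% of Klrb1c and 96.6% of Klre1.

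Klrk1, which encodes the activating receptor NKG2D, had 21, 5 and 593 reads in WT replicates 1 to 3 and 19, 22 and 24 in KO replicates 1 to 3. These were 2.81, 3.42 and 56.1 CPM in WT and 1.85, 1.76 and 1.25 CPM in KO. Its ratio between WT replicate 3 and the other 5 libraries was 31.4 (exact 95% interval 25.1 to 39.5, which like the other intervals here covers counting error only). Klrb1c, which encodes NK1.1, had 3, 3 and 386 reads in WT and 4, 6 and 5 in KO. That is 36.5 CPM in WT replicate 3 and 0.261 to 2.05 CPM elsewhere, a ratio of 88.4 (57.0 to 145). The WT and KO libraries overlapped for Klrb1c, since WT replicate 1 (0.401 CPM) was below KO replicate 2 (0.480 CPM).

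The pair that forms the receptor for Qa-1 followed the same pattern. Klrd1 (CD94) had 7, 2 and 222 reads in WT and 6, 8 and 7 in KO, or 0.936, 1.37 and 21 CPM and 0.584, 0.640 and 0.365 CPM. Klrc1 (NKG2A), with the reads it may share with Klrc2 and Klrc3, had 10, 2 and 167 reads in WT and 4, 6 and 9 in KO. In CPM that is 1.34, 1.37 and 15.8 in WT and 0.389, 0.480 and 0.470 in KO. WT replicate 3 exceeded the other libraries 35.6-fold for Klrd1 (24.2 to 54.0) and 25.9-fold for Klrc1 (17.6 to 39.4). For Klrd1, Klrc1 and Klrk1 each KO library lay below each WT library, but WT replicates 1 and 2 were much nearer to KO than to WT replicate 3. Of tested genes, 11.5% lay that way. That share is no background for Klrd1, which was not tested, and Klrc1 was tested only through its WT libraries. Outside WT replicate 3 the order of Klrd1 and Klrc1 rests on few reads.

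Klre1 had the largest share in WT replicate 3 of the 6 genes. It had 0, 1 and 168 reads in WT and 1, 2 and 2 in KO, and the 0 in WT replicate 1 allows up to 0.401 CPM (3 reads). It was at 15.9 CPM in WT replicate 3, 135 times the level over the other 5 libraries (60.6 to 372). With 0 to 2 reads in each of the other libraries, no difference between them was detectable at this depth.

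**Figure D4:**
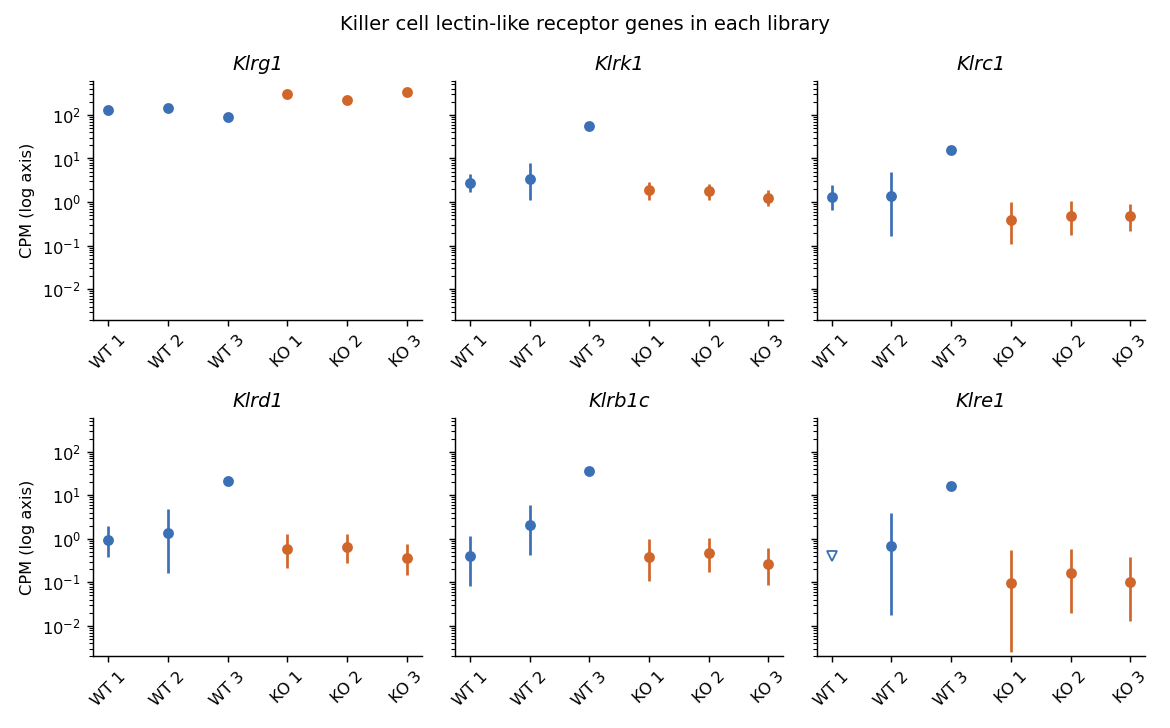
CPM of the 6 receptor genes (log axis) in WT libraries (blue) and KO libraries (orange), with exact 95% Poisson intervals, and an open triangle at the limit that a count of 0 allows. Klrg1 is high in all 6 libraries and highest in KO, whereas the other 5 genes peak in WT replicate 3, at 15.8 to 56.1 CPM.

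Levels can be compared between genes per kilobase of transcript. In WT replicate 3 the order was Klrg1 (65.9 CPM per kb), Klrd1 (24.3), Klre1 (17.4), Klrk1 (17.1), Klrb1c (13.9) and Klrc1 (7.97). In KO, Klrg1 was at 162 to 247 CPM per kb, while the other genes were at 0.0992 to 0.739 CPM per kb.

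None of the 5 was called between KO and WT. Of the 6 genes, 3 passed the low-count filter, Klrg1, Klrk1 and Klrc1. Klrc1 passed it through the WT libraries alone, in which it was higher. Klrk1 had a log2 ratio of -3.74 (SE 1.20; adjusted p = 0.198, edgeR) and Klrc1 of -3.82 (SE 1.05; adjusted p = 0.122, edgeR). DESeq2, which called 3.9% of its genes lower, called Klrc1 lower (-3.81, DESeq2 adjusted p = 0.00947) and gave no p for Klrk1. Without WT replicate 3, where 2.13% of genes were called lower, the values were -0.92 (SE 0.74; adjusted p = 0.552, edgeR) for Klrk1 and -1.56 (SE 1.02; adjusted p = 0.460, edgeR) for Klrc1. With NK cell markers as a covariate, they were -0.03 (SE 0.42; adjusted p = 0.982, edgeR) and -0.85 (SE 0.75; adjusted p = 0.602, edgeR). Klrd1, Klrb1c and Klre1 could be fitted with the low-count filter removed, with log2 ratios of -3.91 (SE 1.15; adjusted p = 0.158, edgeR), -5.13 (SE 1.64; adjusted p = 0.236, edgeR) and -5.45 (SE 1.75; adjusted p = 0.204, edgeR).

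Small differences remained in the counts between KO and the other WT libraries. Pooled KO against pooled WT replicates 1 and 2, the ratio was 0.533 for Klrk1 (65 against 26 reads, exact 95% interval 0.334 to 0.876) and 0.338 for Klrc1 (19 against 12 reads, 0.156 to 0.763). For Klrd1 it was 0.498 (21 against 9 reads, 0.218 to 1.23), for Klrb1c 0.533 (0.195 to 1.68) and for Klre1 1.07 (5 reads against 1, 0.119 to 50.4). The first 2 intervals leave out 1, but they cover counting error only, and the edgeR fits without WT replicate 3 did not call either gene.

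NK cell markers outside this gene family followed the same libraries. Of 12 such markers, 9 had at least 80% of their reads in WT replicate 3, and all 12 summed to 717 CPM there and to 39.2 to 91.7 CPM elsewhere. Ncr1, which encodes the NK cell receptor NKp46, had 419 reads in WT replicate 3 and 3 to 6 reads in each other library. Gzma (granzyme A) was at 303 CPM in WT replicate 3 and 4.49 to 17.1 CPM elsewhere, and Prf1 (perforin) at 125 CPM against 1.47 to 6.84. Eomes, an NK cell transcription factor, had 134 reads there and 0 to 4 elsewhere, and Styk1 was at 0 in 4 of the other 5 libraries. The 3 markers with less than 80% in that library, Txk, Itga2 and Fasl, are also T cell genes. Without them the sum was 633 CPM in WT replicate 3 and 9.71 to 34.2 CPM elsewhere. They were left out by their share in that library, so this sum is no separate support. Txk, a kinase gene, was the one NK list gene called, lower in KO (log2 ratio -1.48, SE 0.24; adjusted p = 0.0298, edgeR). It was not called when scaled to pan-T cell genes (-1.76; adjusted p = 0.0570, edgeR) or with the NK covariate (-1.09; adjusted p = 0.0638, edgeR). Txk is part of the sum used as that covariate, so the latter fit adjusts it partly for its own level. No gene of the list was called with the replicate block, or without WT replicate 2, KO replicate 1, KO replicate 2 or KO replicate 3. DESeq2 called 2 of them lower. B cell, erythroid and macrophage markers were also highest in WT replicate 3, and the part of any of these cells in the levels of the 5 receptor genes was not tested.

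The mix of NK cell transcripts was described for pooled sets of libraries. Over the 5 receptor genes, Ncr1, Gzma and Prf1 there were 182 reads in WT replicates 1 and 2, 6480 in WT replicate 3 and 521 in KO. Of these, in that order, Gzma supplied 54.9%, 49.4% and 48.9%, and Prf1 11.5%, 20.5% and 24.4%. Klrk1 supplied 14.3%, 9.15% and 12.5%, Klrc1 6.59%, 2.58% and 3.65%, and Klrd1 4.95%, 3.43% and 4.03%. Klrb1c supplied 3.3%, 5.96% and 2.88%, and Klre1 0.549%, 2.59% and 0.96%. Klrb1c and Klre1 thus took a larger share of this mix in WT replicate 3 than in either of the other sets, and Klrk1, Klrc1 and Klrd1 a smaller one, a description with no test. In WT replicates 1 and 2 some shares rest on few reads, 1 for Klre1 and 6 for Klrb1c. The genes nearest to Klrk1 in pattern were Gzma, Ly6d and S100a9, and those nearest to Klrc1 were Ly6d, S100a9 and Cd209a, which include myeloid genes (root mean square difference of log2 CPM 0.18 to 0.33). Between Klrk1 and Klrc1 this difference was 0.33, and between either and Klrg1 it was 2.36 and 2.26.

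The Klr family as a whole showed how far this pattern reached. The table holds 37 Klr symbols. Leaving out Klrg1 but not the 5 other genes described above, they had 4273 reads, of which 85.9% were in WT replicate 3. Of these 36 symbols, 34 had their highest CPM there (1, Klra5, had no read). These figures therefore partly repeat the values of those 5 genes. Among the 33 symbols with at least 10 reads over all 6 libraries, 29 had at least 80% of them in WT replicate 3. Reads of that library count towards the 10, and Klra6 (10 reads) and Klra10 (13 reads) passed through it alone. The 29 are therefore no separate support, and the share of all genes with 80% there was not counted. The Ly49 genes, MHC class I receptors of NK cells, were near 0 elsewhere. Klra7 had 173 reads in WT replicate 3 and 4 in the other 5 libraries, Klra9 had 160 and 7, and Klra4 had 121 and 11. Ly49 genes are near-identical and their counts may share reads. Klra8 and Klra21, for example, had 82 and 79 reads in WT replicate 3 and both had 3, 2 and 3 in KO. The totals and counts of symbols above may therefore hold the same reads under several symbols. Klri2, whose product pairs with that of Klre1, had 152 reads there and 16 elsewhere, and Klrb1b, an inhibitory relative of NK1.1, had 102 and 16.

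The exceptions beside Klrg1 were Klra2, Klrb1f and Klrg2. Klra2 had 32 of its reads in KO replicate 2 (2.56 CPM) and 92 in WT replicate 3 (8.70 CPM). Klrb1f, a receptor for a C-type lectin-related ligand, was at 2.41, 2.74 and 8.99 CPM in WT and at 2.53, 1.20 and 1.51 CPM in KO (log2 ratio -1.48, SE 0.70; adjusted p = 0.350, edgeR). Klrg2, a family member outside the NK gene complex, was at 12.6, 1.37 and 8.80 CPM in WT and 0.292, 2.16 and 0.470 CPM in KO (log2 ratio -3.01, SE 0.95; adjusted p = 0.167, edgeR). Its 2 highest libraries, WT replicates 1 and 3, were also the highest for lung epithelial markers (80734 and 25239 CPM against 2310 to 18198 in the others). Those 2 were the tested genes among 20 listed relatives found in the table, and edgeR called neither (1 had an unadjusted p under 0.05).

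**Figure D5:**
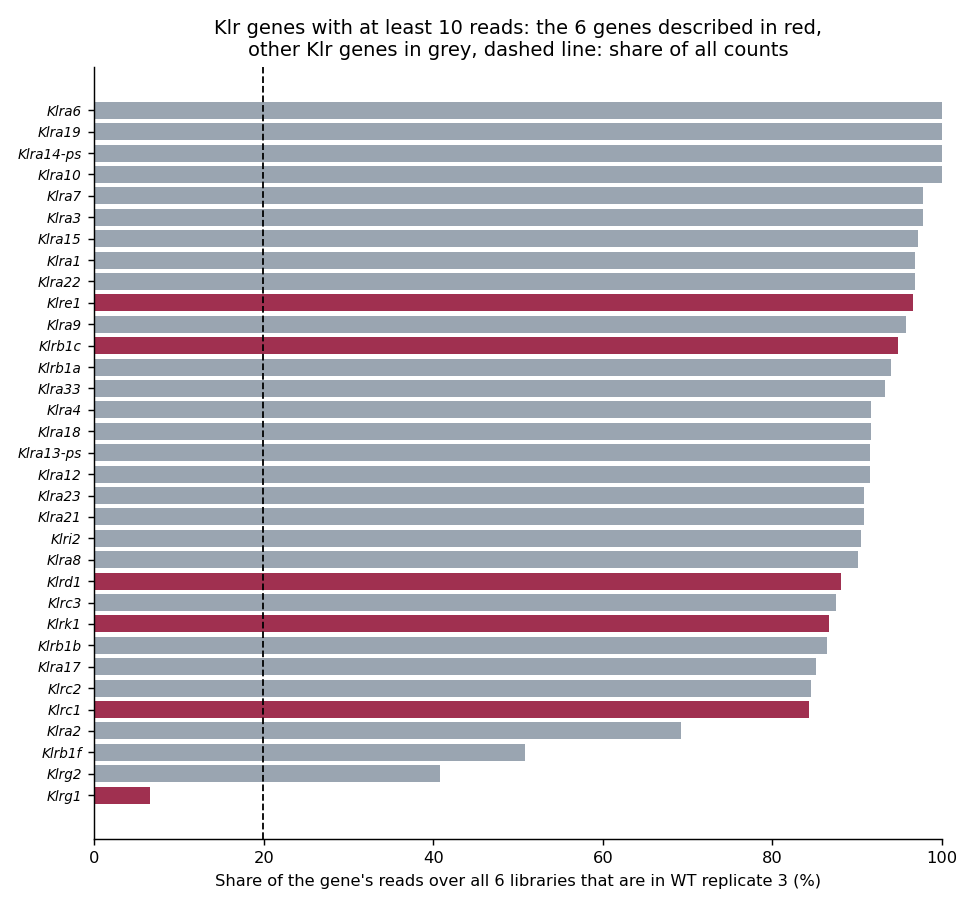
Share of each gene's reads over all 6 libraries that fell in WT replicate 3 (x axis, percent) for 33 Klr genes with at least 10 reads (y axis), with the 6 described genes in red and a dashed line at 19.9%, the share of all counts. Klrg1 (6.57%) is the one gene below the line, and 29 genes are at or above 80%.

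Adaptors and signalling proteins of these receptors were tested as a list of 13, and edgeR called none in either direction (2 had an unadjusted p under 0.05). Hcst, which encodes the NKG2D adaptor DAP10, was at 155, 165 and 151 CPM in WT replicates 1 to 3 and 168, 153 and 195 CPM in KO (log2 ratio 0.13, SE 0.13; adjusted p = 0.684, edgeR). Its level hardly varied between libraries, unlike that of Klrk1. Tyrobp, which encodes DAP12 and is shared with myeloid cells, was at 30.4, 43.8 and 551 CPM in WT and 60.3, 64.7 and 62.1 CPM in KO. Its log2 ratio was -1.77 (SE 1.16; adjusted p = 0.541, edgeR) with all libraries and 0.80 (SE 0.21; adjusted p = 0.0782, edgeR) without WT replicate 3, so its sign turned. Fcer1g (-1.42 and 1.23), Syk (-1.76 and 0.39) and Plcg2 (-2.03 and 0.24) turned in the same way, and edgeR called none of them in either fit. Without WT replicate 3, edgeR called 4 of 10 tested macrophage and monocyte markers higher in KO and 0 lower. Of all genes, 1.87% were called higher in that fit. The part of such cells in these turns was not tested. The phosphatase genes through which inhibitory receptors act were not called either, with log2 ratios of -0.49 for Ptpn6, -0.01 for Ptpn11 and 0.35 for Inpp5d. Lck (0.32) and Zap70 (0.44), which encode proximal kinases of T cell receptor signalling, had the highest levels per kilobase in the list beside Hcst and were not called.

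Ligand genes were measured in the same libraries, although the cells that present ligands to Treg cells were not sorted. Of 18 listed, 17 were in the table and 7 were tested, and edgeR called none (0 had an unadjusted p under 0.05). H2-T23, which encodes Qa-1, the ligand of CD94 with NKG2A, was at 1064 ± 142 in WT and 880 ± 97.3 in KO (CPM, SD, n = 3 each, log2 ratio -0.27, SE 0.14; adjusted p = 0.380, edgeR). Cdh1, which encodes the KLRG1 ligand E-cadherin, was at 94.9, 19.8 and 71.7 CPM in WT and 25.0, 37.5 and 15.2 CPM in KO (log2 ratio -1.31, SE 0.55; adjusted p = 0.319, edgeR), and like Klrg2 it was highest in the 2 libraries with most lung epithelial markers. The cadherin genes Cdh2 and Cdh4 had 0 reads and 1 read in all. Of the NKG2D ligands, Ulbp1 was at 7.25 ± 0.850 in WT and 5.35 ± 1.01 in KO (CPM) and H60b at 3.82 ± 1.27 and 1.69 ± 0.589 CPM (SD, n = 3 each), neither of them called. Clec2d, which encodes a ligand of NKR-P1 receptors, had a log2 ratio of 0.19 (SE 0.23; adjusted p = 0.742, edgeR).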

How the data were processed

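Per the file headers, each row of the deposited table is 1 RefSeq transcript with its length and a read count for every library. Bowtie2 2.2.6, TopHat2 2.2.1, bcl2fastq and the build mm10 are named per the submitters' processing notes. For the counter, annotation release, strand setting and filters, the sources used here give nothing. There are 31682 rows for 23992 symbols, of which the row of highest total was kept for each symbol. A filterByExpr filter (minimum count of 10, total of 15) left 12720 genes, which were scaled with TMM and tested with edgeR 4.0.16 (quasi-likelihood, robust, R 4.3.3), with Benjamini-Hochberg adjustment over all of them and a threshold of 0.05. Standard errors were derived from the log2 fold change and its F statistic. Alternatives used DESeq2 1.42.0 and limma 3.58.1, other scaling, no filter, the longest row, a replicate block, an NK marker covariate and each library left out. A count of 3, the limit that 0 allows, equals 0.157 to 2.05 CPM. The test was also run on simulated counts in which no library stood apart as WT replicate 3 does. That run therefore says nothing about the test with such a library present. The genes, lists and motifs were chosen with earlier results of these data known. All 6 genes were described. From the lists described, genes called with all 6 libraries, some genes of highest level per kilobase and defining markers were named, and the 3 nearest genes per tested receptor. Gata3 and Ctla4 among effector Treg genes and Clec2i among ligands also ranked high per kilobase and were not described. Other list genes named, and the ratios between genes, were chosen after their values were seen. Klrd1, Klrb1c and Klre1 did not pass the filter, so ratios of pooled CPM stand in for the planned test, beside a fit with no filter.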

Additional observations from a re-analysis of the deposited data

How the results depend on the processing

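Klrg1 was called in 8 of 10 fits that changed the method and in 2 of 6 that left out 1 library. The NK marker covariate (0.90), which was higher in every WT library than in any KO library, ended the call of Klrg1. The range for Klrg1 with each library left out was 1.07 to 1.41. The replicate block gave 1.25 for Klrg1 (edgeR adjusted p = 0.107) and ended its call. Deviations of same-numbered WT and KO libraries correlated weakly (0.0838, -0.147 and -0.0446 for replicates 1 to 3). WT replicate 1 correlated best with its own number, and WT replicates 2 and 3 with another (0.186 and 0.0756). With so few libraries, correlations this weak cannot decide whether samples were paired by number. The loss of the call with the block therefore cannot be set aside. Klrc1 was called with DESeq2 (-3.81) and in no other fit, and Klrk1 in none; DESeq2 gave no p for Klrk1. For the genes that did not pass the low-count filter, the log2 ratio of pooled CPM was -4.56 for Klrd1, -5.81 for Klrb1c and -6.18 for Klre1, and with each library left out it ran from -5.21 to -1.0, from -6.49 to -0.90 and from -6.87 to 0.10, the last value of each being that without WT replicate 3, where the sign turned for Klre1. With no filter the fitted values were smaller in size, -3.91, -5.13 and -5.45, and none was called. Of the 3 receptor genes tested, 1 was called higher and 0 lower. DESeq2 called 1 lower, while 0 were called higher with the block or with the covariate. With each library left out, 3 to 5 were tested and 0 to 1 called higher. Of the 12720 genes tested, 96 (0.755%) were called higher and 125 (0.983%) lower. The counts were 29 higher and 134 lower when scaled to pan-T cell genes (median of all genes -0.27 instead of -0.04), 367 and 496 with DESeq2, 63 and 92 without robust estimation, 32 and 91 with the replicate block, 220 and 221 with the covariate, and 2 to 242 higher and 2 to 276 lower with each library left out. The cause of these changes was not tested. The depth of WT replicate 2 limits what can be said of the 5 genes at low level, since 3 reads there equal 2.05 CPM.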
